A study of Homo sapiens with 9 samples.

Results

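The CLCN5 intronic cluster is a run of 8 miRNA hairpins on chromosome X, in the order hsa-mir-532, hsa-mir-188, hsa-mir-500a, hsa-mir-362, hsa-mir-501, hsa-mir-500b, hsa-mir-660 and hsa-mir-502. Its members were taken by name from a count table of 1485 hairpins, and all 8 listed names were present. Small RNAs had been sequenced in 9 libraries from human cell lines treated with siRNAs against ERH or with control siRNAs. HEK293E, which derives from the human embryonic kidney line HEK293, received siRNAs by lipofection on days 0 and 3 and was harvested on day 5. Its 4 control libraries carried siGFP or siControl, each in replicates 1 and 2, and its 3 siERH libraries carried siERH-#3 in replicates 1 and 2 and siERH-#5 in replicate 2. K562, a leukaemia line with erythroid features, received siGFP or siERH-#5 by electroporation, in 1 library each, and was harvested 4 days later. No genotype or transgene is given for either line. All HEK293E libraries shared the repeated lipofection, and the labels do not say whether replicates were separate cultures, so p-values measure only the spread between these libraries.

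Clustered miRNAs are usually cut from 1 long primary transcript. Microprocessor, a complex of the nuclease DROSHA and its partner DGCR8, releases each hairpin in the nucleus, DICER1 then removes the loop, and an Argonaute protein keeps an arm as the mature miRNA. ERH is a small nuclear protein that has been reported to bind DGCR8, and some hairpins are known to be cut better when a neighbour in the same transcript is cut well. CLCN5 encodes a chloride/proton exchanger of endosomes that is best known from the kidney proximal tubule, where its loss causes Dent disease. Because these libraries hold small RNAs only, ERH mRNA and CLCN5 mRNA were not measured.

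In GENCODE release 29 (GRCh38), CLCN5 occupies chrX:49922615-50099235 on the plus strand. The 8 hairpins lie on the same strand between 50003148 and 50014683, a span of 11536 bp. All of them are in the intron from 49925315 to 50042315, which is intron 3 of 14 in CLCN5-202 and CLCN5-203 and intron 2 of 2 in CLCN5-205. Only these 3 of the 9 CLCN5 transcripts span the hairpins, and 0 of the 8 hairpins overlap an exon of them. The gaps between consecutive hairpins are 264 bp from hsa-mir-532 to hsa-mir-188, then 4842 bp to hsa-mir-500a, 449 bp to hsa-mir-362, 693 bp to hsa-mir-501, 866 bp to hsa-mir-500b, 2490 bp to hsa-mir-660 and 1260 bp to hsa-mir-502. Chaining hairpins of 1 strand at 10 kb or less, as was done for the whole table, joined these 8 and no other hairpin.

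Mature sequences are shown first for the members that resemble each other, because resemblance bears on which hairpin a read was counted for. They are RefSeq sequences on GRCh38.p14, plus strand, 5′ to 3′, and capitals mark the seed, bases 2 to 8, which pairs with targets.
hsa-miR-500a-5p: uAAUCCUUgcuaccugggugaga
hsa-miR-500b-5p: aAUCCUUGcuaccugggu
hsa-miR-362-5p: aAUCCUUGgaaccuaggugugagu
hsa-miR-501-5p: aAUCCUUUgucccugggugaga
hsa-miR-502-5p: aUCCUUGCuaucugggugcua
hsa-miR-500a-3p: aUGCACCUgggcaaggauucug
hsa-miR-501-3p: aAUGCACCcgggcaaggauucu
hsa-miR-502-3p: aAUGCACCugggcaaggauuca
The seed AUCCUUG is shared by hsa-miR-362-5p and hsa-miR-500b-5p, and AUGCACC by hsa-miR-501-3p and hsa-miR-502-3p. The letters AUCCUU, searched on the mature strand, occur in 5 of the 15 member sequences matched in the RefSeq table (all arms but hsa-miR-660-5p) and in 18 of its 2545 human mature sequences (0.707%). The first 5 sequences above hold that run at base 1, 2 or 3.

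The RefSeq table matched 7 of the 8 hairpins by name, all but hsa-mir-501. The hairpins of the first and the last neighbouring pair are printed whole, because the balance within these pairs differed between the arms of the study. Capitals mark the mature sequences listed for each.
hsa-mir-532 (chrX:50003148-50003238): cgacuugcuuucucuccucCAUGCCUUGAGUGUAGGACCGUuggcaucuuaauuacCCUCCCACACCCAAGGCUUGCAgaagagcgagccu
hsa-mir-188 (chrX:50003503-50003588): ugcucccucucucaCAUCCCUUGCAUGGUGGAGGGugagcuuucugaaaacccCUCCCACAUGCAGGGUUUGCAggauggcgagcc
hsa-mir-660 (chrX:50013241-50013337): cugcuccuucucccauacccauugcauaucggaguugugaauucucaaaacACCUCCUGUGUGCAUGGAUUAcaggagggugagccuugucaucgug
hsa-mir-502 (chrX:50014598-50014683): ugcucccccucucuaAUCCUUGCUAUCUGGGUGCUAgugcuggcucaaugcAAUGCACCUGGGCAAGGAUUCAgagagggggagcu
Folded with RNAfold, hsa-mir-532 had a minimum free energy of -30.8 kcal/mol over 91 nt and hsa-mir-188 one of -38.6 over 86 nt. hsa-mir-660 had -32.8 over 97 nt and hsa-mir-502 had -57.0 over 86 nt, the lowest value of the 7 folded members. The others lay at -37.8 for hsa-mir-500a, -31.5 for hsa-mir-362 and -40.8 for hsa-mir-500b, and GC content ran from 41.5% in hsa-mir-362 to 58.1% in hsa-mir-188.

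Members of the 500 family cannot be fully separated by sequence. hsa-mir-500a and hsa-mir-500b share an unbroken run of 37 nt, and hsa-miR-500a-5p lies whole within hsa-mir-500b, as hsa-miR-500b-5p does within hsa-mir-500a. hsa-mir-500a and hsa-mir-502 share a run of 26 nt, and their 3p miRNAs share 20 nt. hsa-mir-500b and hsa-mir-502 share 21 nt. Every other pair of the 7 hairpins shares at most 11 nt. How reads that fit several hairpins were counted is not given in the sources used here, so counts of hsa-mir-500a, hsa-mir-500b and hsa-mir-502 are uncertain to the extent that they share reads. The hairpin of hsa-mir-501 could not be compared. Its 3p miRNA shares unbroken runs of 13 nt with hsa-miR-500a-3p and 12 nt with hsa-miR-502-3p. Both runs stop at an inner base, c in hsa-miR-501-3p and u in the others, beyond which the bases match again. The resemblance is thus closer than the runs show, and the count of hsa-mir-501 may be uncertain too. Counts are per hairpin, with both arms together.

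The libraries held 2609929 to 3320017 hairpin counts in total. The cluster gave 25447 to 42092 of these in the HEK293E libraries, and 14620 with siGFP and 21621 with siERH-#5 in K562. Of the marker hairpins listed for the lines, the erythroid hsa-mir-451a had 60425 and 41320 counts in K562 and 51 to 105 in HEK293E, and hsa-mir-144 had 20669 and 35249 against 49 to 87. The blood-cell hairpins hsa-mir-142 and hsa-mir-223 were also high in K562, with 174339 and 219058 counts and with 32446 and 43807. Both copies of hsa-mir-486 were higher there too (hsa-mir-486-1 with 51998 and 69798 counts against 2360 to 4523), and hsa-mir-150, of lymphocytes, had 13 and 15 against 5 to 36. Of the listed muscle markers, hsa-mir-206 had 0 counts in K562 and 0 to 2 in HEK293E and the copies of hsa-mir-1 and hsa-mir-133a had 8 to 50 and 17 to 100, while the liver hairpin hsa-mir-122 had 33 and 113 against 2 to 54.

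The first question was how much of the small RNA in each library came from the cluster. In HEK293E it took 1.30% and 1.04% of hairpin counts in the siGFP and siControl libraries of replicate 1, and 1.09% and 0.901% in those of replicate 2. The siERH libraries had 0.868% and 0.819% with siERH-#3 and 0.805% with siERH-#5, each below all 4 controls. In K562 the percentage went the other way, with 0.559% for siGFP and 0.651% for siERH-#5. On such library totals, however, the median K562 log2 ratio of all hairpins was 0.37. With the TMM scaling explained below, the median was -0.02 over the members and 0.11 over all hairpins. The K562 direction thus depends on the scaling. In libraries from whole cultures, fewer cells that make a miRNA and less of it per cell cannot be told apart.

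The levels in HEK293E were then compared member by member, in CPM (counts per 1000000 of a library total scaled by TMM, which sets libraries on a common scale). The log2 fold changes were unequal in size among the members. A test of each member against the rest of the cluster, given further below, called 0 of the 8 in its main setting. It called 2 with the replicate number as a block. Of the 8 hairpins, 4 (hsa-mir-502, hsa-mir-532, hsa-mir-500a and hsa-mir-500b) were lower in the siERH libraries at an adjusted p-value under 0.05 and 0 were higher, in edgeR's quasi-likelihood test, adjusted by Benjamini-Hochberg over 773 hairpins. Across all hairpins tested, the same test called 16.2% lower and 23.8% higher. Of the 4 members called, hsa-mir-502, hsa-mir-500a and hsa-mir-500b may share reads, so they may not be separate calls. Among hsa-mir-532, hsa-mir-188, hsa-mir-362 and hsa-mir-660, which resemble each other less, only hsa-mir-532 was called. No member had a log2 fold change above 0 in that fit, and 0 were called higher by DESeq2 or limma either. The median log2 fold change was -0.48 over the members and -0.01 over all hairpins. For 5 of the 8 members (those 4 and hsa-mir-362) the CPM of all 3 siERH libraries was below that of all 4 controls, against 19.1% of all hairpins.

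hsa-mir-502, whose miRNA is known for a binding site in SETD8 mRNA, is the last hairpin of the cluster. It had 1355 and 1246 CPM in the siGFP and siControl libraries of replicate 1 and 1305 and 1150 in those of replicate 2. The siERH-#3 libraries had 562.4 and 550.1 CPM and the siERH-#5 library 511.4. All siERH libraries were thus far below the lowest control, and they lay close together. The level fell 2.34-fold, a log2 fold change of -1.22 ± 0.15 (SE, 3 against 4 libraries; adjusted p = 0.000169 by edgeR). Because it shares sequence with hsa-mir-500a and hsa-mir-500b, part of its count may belong to them or theirs to it.

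hsa-mir-532, at the other end of the cluster and known from reports that its miRNA represses RUNX3, had 1626 and 1689 CPM in the replicate 1 controls and 2239 and 2030 in the replicate 2 controls. The siERH libraries had 891 and 979 CPM with siERH-#3 and 938 with siERH-#5. The groups did not overlap, and in both replicates the siERH libraries were below their own controls. The level fell 2.03-fold, with a log2 fold change of -1.02 ± 0.17 (SE; adjusted p = 0.00107, edgeR). Its hairpin shares at most 10 nt with any of the 6 others compared, and its mature sequences share at most 5 nt with those of hsa-mir-501.

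hsa-mir-500a, on average the most abundant member by counts in the controls, had 2512 and 2194 CPM in the replicate 1 controls and 2156 and 1825 in the replicate 2 controls, against 1393, 1252 and 1203 in the siERH libraries. It was lower in every siERH library than in every control, with a log2 fold change of -0.76 ± 0.16 (SE; adjusted p = 0.00459, edgeR). hsa-mir-500b, the near copy, had 965, 778, 831 and 665 CPM in the controls and 553, 527 and 561 with siERH. Here too the groups were apart, at a log2 fold change of -0.57 ± 0.17 (SE; adjusted p = 0.0232, edgeR). The call for hsa-mir-500b was lost in 7 of 15 alternative analyses, its adjusted p-values running from 0.00147 (DESeq2) to 0.204 (limma). By contrast, hsa-mir-502, hsa-mir-532 and hsa-mir-500a passed in 15 of 15. All 15 used the deposited values per hairpin, so they do not bear on reads that several hairpins share.

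Between these hairpins lie members that did not pass the test. hsa-mir-362, whose miRNA has been reported to target CYLD, had 1839, 1422, 1463 and 1367 CPM in the controls and 1258, 1195 and 1203 with siERH. The groups were apart, but the means differed by less than the range of the controls, at a log2 fold change of -0.32 ± 0.16 (SE; adjusted p = 0.13, edgeR). DESeq2 called this hairpin, at an adjusted p of 0.0413. hsa-mir-501, whose miRNA is known from neurons, where it targets a glutamate receptor subunit, had 1481, 1290, 991 and 822 CPM in the controls and 1003, 821 and 777 with siERH. Its controls fell into a higher pair from replicate 1 and a lower pair from replicate 2, and the groups overlapped (log2 fold change -0.40 ± 0.22, SE; adjusted p = 0.167, edgeR). Without the siControl library of replicate 2 the adjusted p was 0.0481.

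hsa-mir-188, only 264 bp downstream of hsa-mir-532 and known for its part in the age-related switch of bone marrow stromal cells from bone to fat, had 826, 704, 1202 and 882 CPM in the controls. The siERH libraries had 728, 906 and 889 CPM and lay within the range of the controls. Its log2 fold change was -0.10 ± 0.20 (SE; adjusted p = 0.703, edgeR) and became 0.088 with library totals in place of TMM, so no direction is given. hsa-mir-660, whose miRNA has been reported to target MDM2, had 1423, 1588, 1800 and 1766 CPM in the controls and 1562, 1533 and 1336 with siERH. These also overlapped, at -0.15 ± 0.15 (SE; adjusted p = 0.448, edgeR), and with library totals the value was 0.040. Library totals moved the median of all hairpins by 0.20 and took the lower share of all calls from 40.5% to 24.0%.

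**Figure D1:**
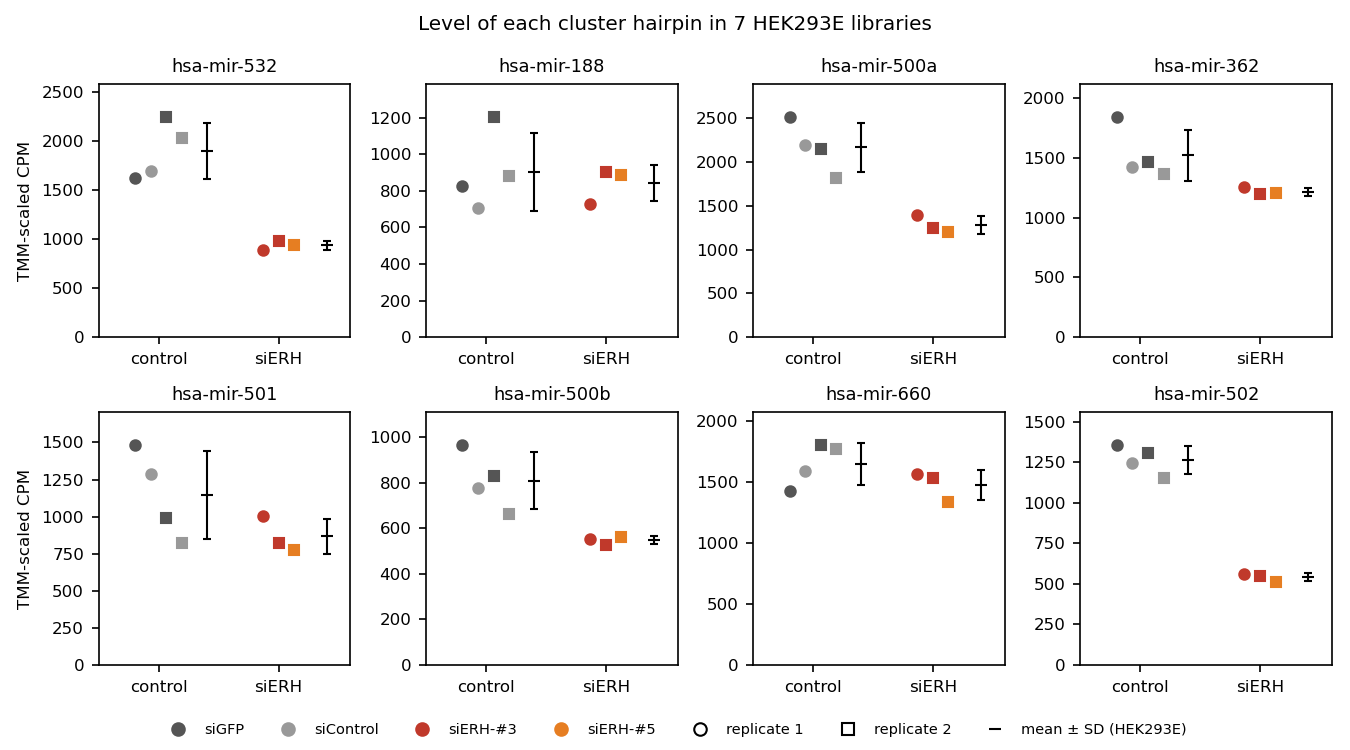
Level of each of the 8 hairpins in the 7 HEK293E libraries, in TMM-scaled CPM on a linear axis from 0, by arm (control or siERH). Circles are replicate 1, squares replicate 2, colours the siRNA, and the bar is the mean ± SD. The siERH points of hsa-mir-502 (511.4 to 562.4 CPM) sit far below its controls (1150 to 1355 CPM), while those of hsa-mir-188 and hsa-mir-660 overlap theirs.

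Each member's share of the summed cluster counts was computed next, because a share does not depend on how libraries are scaled. The 8 shares of a library add up to the whole, so a lower share of 1 member raises the others. Mature miRNAs are read whole, so counts were not divided by length, and whether ligation or mapping favours some members was not tested. In the 4 HEK293E control libraries the order was hsa-mir-500a (19.1% ± 1.68, SD), hsa-mir-532 (16.8% ± 2.73), hsa-mir-660 (14.6% ± 2.06), hsa-mir-362 (13.4% ± 1.33), hsa-mir-502 (11.1% ± 0.255), hsa-mir-501 (10.1% ± 2.34), hsa-mir-188 (7.94% ± 1.62) and hsa-mir-500b (7.10% ± 0.701). Of the 7 neighbours in this order, only hsa-mir-362 and hsa-mir-502 had ranges that did not overlap. In the 3 siERH libraries hsa-mir-660 led with 19.1% ± 0.976 (SD), followed by hsa-mir-500a (16.6% ± 0.780), hsa-mir-362 (15.8% ± 0.412), hsa-mir-532 (12.2% ± 0.816), hsa-mir-501 (11.2% ± 1.21), hsa-mir-188 (10.9% ± 1.55), hsa-mir-500b (7.10% ± 0.411) and hsa-mir-502 (7.02% ± 0.108). Here hsa-mir-660 stood apart from hsa-mir-500a, hsa-mir-362 from hsa-mir-532, and hsa-mir-188 from hsa-mir-500b, while the ranges of the other neighbours overlapped. hsa-mir-502 thus went from position 5 to position 8, and hsa-mir-660 from 3 to 1.

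For 2 members the shares in all siERH libraries were below all controls, and for 2 they were above. Among 175 hairpins in 69 clusters, each hairpin's share of its own cluster lay below in 16.0% and above in 16.0%, so unpaired counts of 2 of 8 are not far from that background. Compared within each replicate, 3 members lay below their controls in both replicates (hsa-mir-532, hsa-mir-500a and hsa-mir-502) and 4 lay above (hsa-mir-188, hsa-mir-362, hsa-mir-501 and hsa-mir-660), all but hsa-mir-500b. The same rule found 24.0% of the 175 clustered hairpins below and 24.0% above, with only 1 siERH library to compare in replicate 1. An exact permutation test (two-sided) of each difference went through all 35 assignments of 3 and 4 libraries, and 0.0286 is the smallest p it can give. These 8 p-values were not adjusted.

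The share of hsa-mir-502 was 11.3% and 11.4% in the siGFP and siControl libraries of replicate 1 and 10.9% in both controls of replicate 2. It was 7.07% and 7.09% with siERH-#3 and 6.89% with siERH-#5. The 4 controls agreed within less than a percentage point, as did the 3 siERH libraries, and the gap of -4.11 percentage points was larger than either spread (exact permutation p = 0.0286). hsa-mir-532 took 13.5% and 15.5% in the replicate 1 controls, 18.7% and 19.3% in the replicate 2 controls, and 11.2%, 12.6% and 12.6% with siERH. Its siERH shares were below all controls, but the controls differed between replicates by about as much as the arms did (difference -4.60, exact permutation p = 0.0571).

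Shares were larger with siERH for members whose level differed least between the arms. hsa-mir-660 took 11.8%, 14.6%, 15.0% and 16.8% of the cluster in the controls and 19.6%, 19.7% and 18.0% with siERH. All siERH shares were above all controls, by 4.58 percentage points between means (exact permutation p = 0.0571). hsa-mir-362 took 15.3%, 13.0%, 12.2% and 13.0% in the controls and 15.8%, 15.4% and 16.2% with siERH, a difference of 2.43 (exact permutation p = 0.0571). Its siERH shares cleared the siGFP library of replicate 1 only narrowly. hsa-mir-188 took 6.87%, 6.45%, 10.0% and 8.40% in the controls and 9.15%, 11.7% and 12.0% with siERH, a difference of 3.00 (exact permutation p = 0.114). Within each replicate its siERH shares were above both controls, but across replicates the groups overlapped. The differences were -2.47 for hsa-mir-500a, 1.17 for hsa-mir-501 and 0.0012 for hsa-mir-500b, with overlapping groups and exact permutation p-values of 0.143, 0.429 and 1.0.

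With permutation restricted to libraries of the same replicate number, the smallest possible p is 0.0556, so no share can pass. It was reached by hsa-mir-502 (-4.06), hsa-mir-532 (-5.14), hsa-mir-660 (4.36), hsa-mir-188 (2.57) and hsa-mir-500a (-2.10). The siERH siRNAs could be set side by side within replicate 2, where they gave shares of 7.09% and 6.89% for hsa-mir-502, 12.6% each for hsa-mir-532, 19.7% and 18.0% for hsa-mir-660 and 15.4% and 16.2% for hsa-mir-362. siERH-#5 has 1 HEK293E library, so no difference between the siRNAs was tested.

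To set aside the members that resemble each other, shares were also taken over hsa-mir-532, hsa-mir-188, hsa-mir-362 and hsa-mir-660 alone. Of this sum hsa-mir-532 took 28.5%, 31.3%, 33.4% and 33.6% in the controls and 20.1%, 21.2% and 21.5% with siERH. The groups did not overlap, and their means differed by -10.7 percentage points of this smaller sum (exact permutation p = 0.0286). hsa-mir-660 took 24.9%, 29.4%, 26.8% and 29.2% in the controls and 35.2%, 33.2% and 30.6% with siERH, a difference of 5.42 (exact permutation p = 0.0286). hsa-mir-362 had 28.3%, 25.9% and 27.6% with siERH, within the 21.8% to 32.2% of the controls, so the separation of the arms was not seen without the 500 family, although the mean was 1.53 percentage points higher (exact permutation p = 0.657). In K562 its share of this sum was 24.6% with siGFP and 31.2% with siERH-#5.

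**Figure D2:**
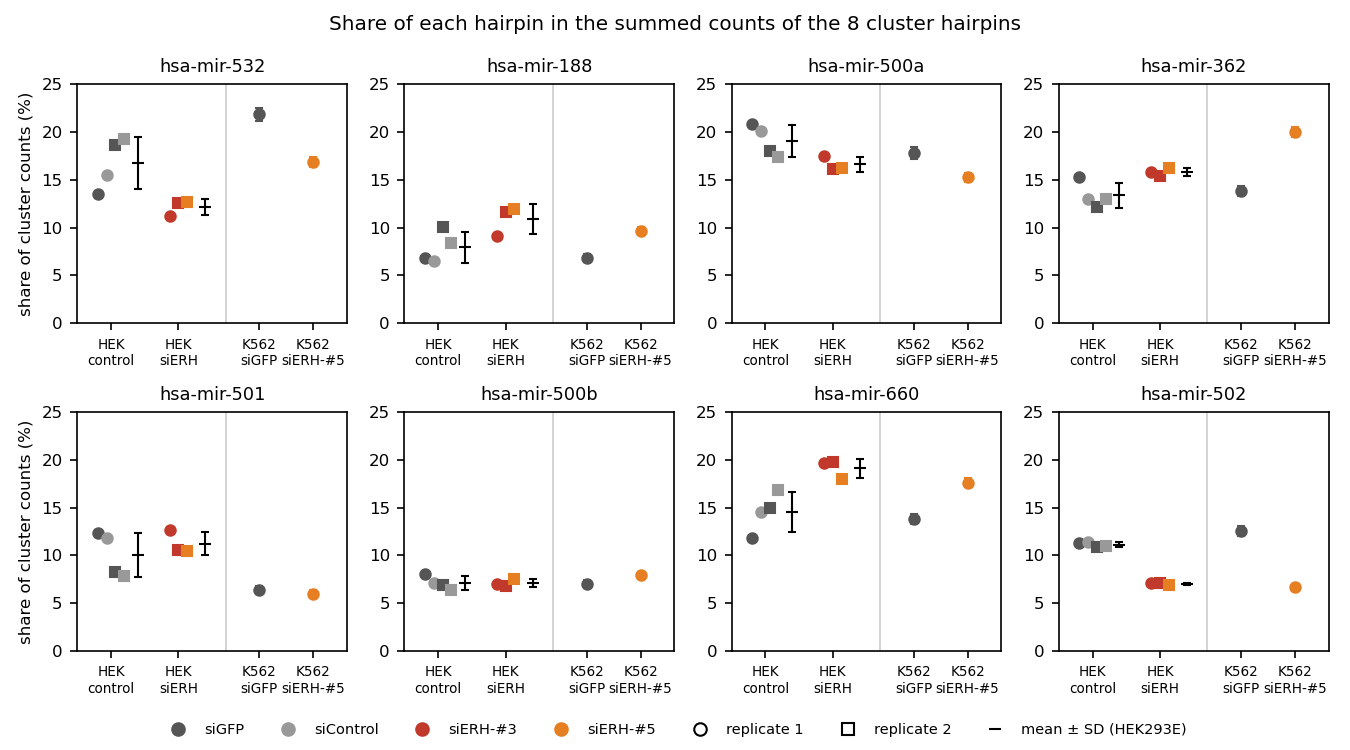
Share of each hairpin in the summed cluster counts, in percent, for HEK293E control, HEK293E siERH, K562 siGFP and K562 siERH-#5 libraries; circles and squares are replicates 1 and 2, and colours the siRNA. Black bars are HEK293E means ± SD, and bars on the K562 points are 95% Wilson intervals. With siERH, hsa-mir-502 is near 7% of the cluster in both lines (7.02% and 6.67%), while hsa-mir-500b is near 7% in both arms of HEK293E.

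A second test asked whether a hairpin changed relative to the other hairpins of its own cluster, over all clusters at once (edgeR diffSpliceDGE, Benjamini-Hochberg over 175 hairpins). It called 10.9% of clustered hairpins and 0 of the 8 members, 1 of which had an unadjusted p under 0.05. The nearest was hsa-mir-502, lower than the rest of the cluster by 0.66 on the log2 scale (value -0.66, edgeR adjusted p = 0.0679, unadjusted 0.00777). hsa-mir-532 had -0.46 (adjusted p = 0.348), hsa-mir-188 0.46 (0.376) and hsa-mir-660 0.40 (0.435), and their unadjusted p-values were all above 0.05. With the replicate number as a block the test called hsa-mir-502 (-0.66, edgeR adjusted p = 0.00457) and hsa-mir-532 (-0.50, adjusted p = 0.0466). hsa-mir-502 also passed with a mean of at least 100 counts (adjusted p = 0.0457) and without the siGFP library of replicate 1 (0.0489). Over all alternatives its adjusted p ran from 0.00457 to 0.281, so the call for this last hairpin depended on the setting while its value stayed between -0.68 and -0.65.

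Count ratios of consecutive hairpins were added after the shares had been seen, and therefore carry no test. hsa-mir-532 gave 1.97, 2.40, 1.86 and 2.30 counts for each hsa-mir-188 count in the HEK293E controls, in the order siGFP and siControl of replicate 1 and then of replicate 2. With siERH it gave 1.22, 1.08 and 1.05, so the members of this pair were counted nearly equally. For each hsa-mir-660 count there were 0.952, 0.785, 0.725 and 0.651 hsa-mir-502 counts in the controls and 0.360, 0.359 and 0.383 with siERH. On a log2 scale, downstream over upstream, the mean ratio went from -1.08 ± 0.18 (SD) to -0.16 ± 0.12 for hsa-mir-188 over hsa-mir-532, and from -0.38 ± 0.23 to -1.45 ± 0.05 for hsa-mir-502 over hsa-mir-660. The pair hsa-mir-362 over hsa-mir-500a went from -0.51 ± 0.10 to -0.07 ± 0.07. In these 3 of 7 pairs the arms did not overlap, and in the other 4 they did. Pairs in other clusters were not compared, so this count has no background beside it.

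**Figure D3:**
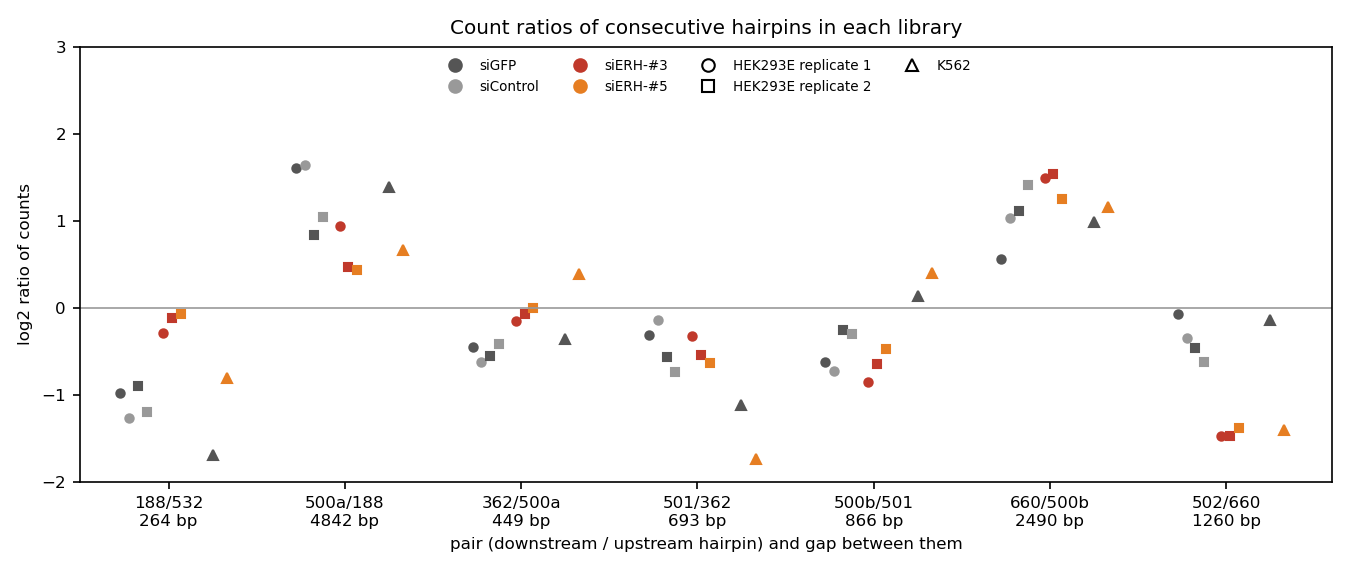
Log2 ratio of counts of the downstream to the upstream hairpin for the 7 consecutive pairs, 1 point per library, with the gap between the hairpins under each pair. Circles and squares are HEK293E replicates 1 and 2, triangles K562, and colours the siRNA. The siERH points lie above the controls for hsa-mir-188 over hsa-mir-532 and hsa-mir-362 over hsa-mir-500a and below them for hsa-mir-502 over hsa-mir-660, in HEK293E and in K562.

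K562 gave the same comparison in another cell type, with 1 library per arm and therefore no test. Its shares have 95% Wilson intervals, which cover counting error only. hsa-mir-502 took 12.5% (12.0 to 13.1%) of the cluster with siGFP and 6.67% (6.34 to 7.01%) with siERH-#5, on 1830 and 1442 counts. hsa-mir-532 took 21.9% (21.2 to 22.6%) and 16.9% (16.4 to 17.4%), and hsa-mir-500a took 17.8% (17.2 to 18.4%) and 15.3% (14.8 to 15.7%). These 3 shares were lower with siERH-#5 by more than counting error.

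Another 4 shares were larger with siERH-#5 in K562: hsa-mir-362 (13.8% to 20.0%), hsa-mir-660 (13.8% to 17.6%), hsa-mir-188 (6.79% to 9.64%) and hsa-mir-500b (6.98% to 7.90%). Their intervals did not overlap either. The same comparison was not made for hairpins of other clusters, so these K562 counts of members have no background beside them. hsa-mir-501 had 6.36% and 6.003%, with overlapping intervals. The sign of the change of share was the same in K562 and HEK293E for 7 of the 8 members, all but hsa-mir-501. Among the 7 is hsa-mir-500b, although its HEK293E difference was 0.0012 percentage points. Signs were not counted for hairpins of other clusters, and the 8 shares of a library are not independent, so 7 of 8 is a description only. The pair ratios moved alike too, by 0.88 on the log2 scale for hsa-mir-188 over hsa-mir-532, by 0.75 for hsa-mir-362 over hsa-mir-500a and by -1.26 for hsa-mir-502 over hsa-mir-660.

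By level the lines were less alike. In K562, 0 of the 8 members differed at least 2-fold between the libraries, against 16.9% of 646 hairpins. hsa-mir-502 came closest, with 773 CPM for siGFP and 394 CPM for siERH-#5, a log2 ratio of -0.97 with a pseudocount of 1 CPM. hsa-mir-532 had -0.44 and hsa-mir-500a -0.28. hsa-mir-362 (0.47), hsa-mir-188 (0.44), hsa-mir-660 (0.29) and hsa-mir-500b (0.12) were higher in the siERH-#5 library, and hsa-mir-501 had -0.15. The median was -0.02 over the members and 0.11 over all hairpins, and with library totals the median of all hairpins was 0.37, so single values depend on the scaling. With library totals the log2 ratios were -0.69 for hsa-mir-502, -0.16 for hsa-mir-532, -0.0019 for hsa-mir-500a, 0.14 for hsa-mir-501, 0.40 for hsa-mir-500b, 0.57 for hsa-mir-660, 0.72 for hsa-mir-188 and 0.75 for hsa-mir-362. Only that of hsa-mir-501 changed sign, and hsa-mir-500a was then nearly level.

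**Figure D4:**
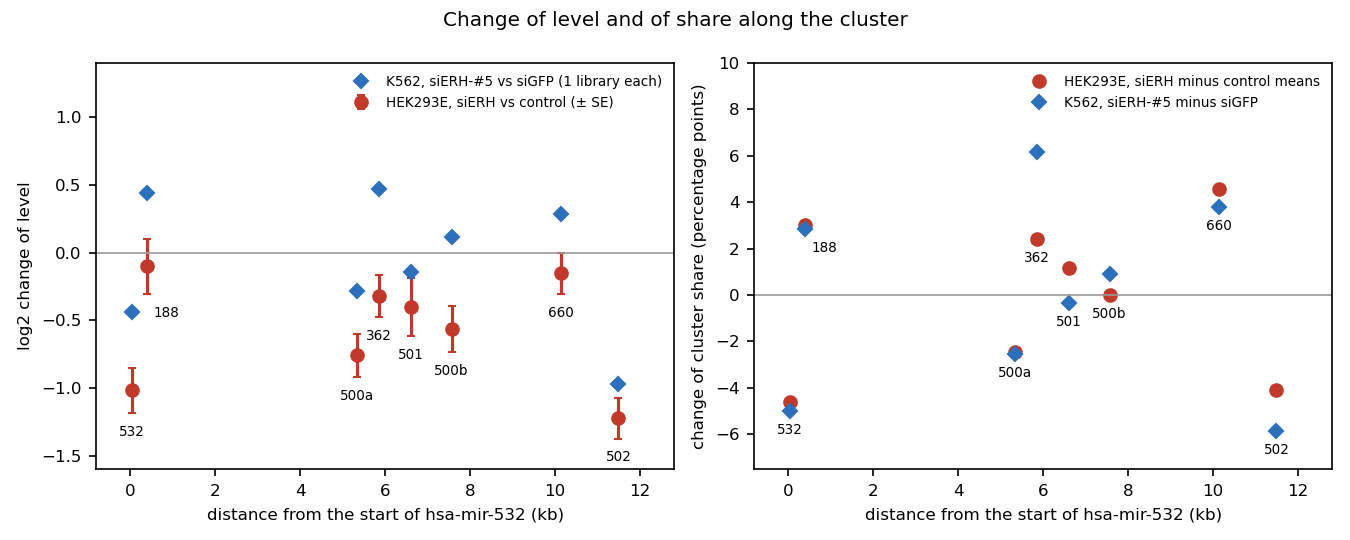
Change of level (left, log2, with SE for HEK293E) and change of cluster share (right, percentage points) of the 8 hairpins against the distance of their centres from the start of hsa-mir-532 in kb. Red circles are HEK293E siERH against control, blue diamonds K562 siERH-#5 against siGFP with 1 library each. The outer hairpins hsa-mir-532 and hsa-mir-502 are lowest in both panels, and the changes of share nearly coincide between lines for hsa-mir-532, hsa-mir-188 and hsa-mir-500a.

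With siGFP, some members had K562 shares outside the range of the HEK293E controls. K562 has no replicate siGFP library, so the spread between cultures is unknown there and no difference between the lines was tested. Hairpins of other clusters were not compared by this rule, so these positions have no background beside them. Of the siGFP shares, hsa-mir-532 had 13.5% and 18.7% in the HEK293E replicates and 21.9% in K562, above all HEK293E controls. hsa-mir-502 was also above them, at 12.5% against 11.3% and 10.9%, and hsa-mir-501 was below them, at 6.36% against 12.3% and 8.27%. The other 5 members lay within the range of the HEK293E controls. The transfection method and the harvest time differed between the lines. Their part in where the K562 shares lay cannot be told apart from that of the cell line.

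Members also varied together to different degrees. Over the 7 HEK293E libraries, log2 CPM of hsa-mir-500a correlated with that of hsa-mir-502 at r = 0.97 and with that of hsa-mir-500b at r = 0.97, and hsa-mir-532 with hsa-mir-502 at r = 0.94. These libraries share the difference between arms, and the first pairs also share sequence. hsa-mir-188 correlated with the other members at -0.36 to 0.41, and hsa-mir-660 with hsa-mir-362 at 0.05. Outside the cluster, the hairpins whose log2 CPM followed the summed cluster most closely, among 344 with a mean of at least 100 counts, were hsa-mir-449c (r = 0.984), hsa-mir-124-3 (r = 0.984) and hsa-mir-200a (r = 0.977). Their log2 fold changes were -2.14, -3.01 and -1.78, larger in size than that of any member.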

How the data were processed

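Per the labels, size-selected small RNA from 9 libraries was ligated to adapters with random nucleotides after spike-in RNAs were added. The submitters' processing notes name cutadapt, Bowtie2, bedtools and hg38, without versions or roles. The authors deposited raw counts per hairpin, with 2336 blank cells, read here as 0. The authors also deposited RPM values, which equal the count plus 1 over the library total plus 1485, per 1000000. Spike-ins were not used here, so levels are relative to other hairpins. Members and lists were chosen with earlier results of these data known.

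Counts were fitted with edgeR 4.0.16 in R 4.3.3 (quasi-likelihood test, TMM, mean of at least 10 counts, Benjamini-Hochberg over 773 hairpins, adjusted p-value under 0.05) without a block. Libraries with the same replicate number in their titles deviated together (r = 0.672, 0.463 and 0.501 between siRNAs), so the numbers were taken to pair them, and a blocked fit was an alternative. Usage within clusters was tested with diffSpliceDGE. Alternatives used limma 3.58.1 on log2(RPM + 1) or log2(RPM + 10), DESeq2 1.42.0, other filters and scaling, siGFP alone as control, and each library left out. Shares were compared with exact permutation tests (scipy 1.17.1). The fits were also run on simulated counts as a check of the code. These counts had no replicate effect and no reads shared between hairpins, so neither was covered. Hairpins named outside the cluster are the 3 most correlated with its sum and those that carry a member's seed. Coordinates come from GENCODE release 29, matched for 1484 of 1485 hairpins, and folding energies from RNAfold 2.7.2. Counts bound the precision, and reads were not known to be collapsed by molecule, so intervals cover counting error only.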

Additional observations from a re-analysis of the deposited data

Results flagged for a closer look

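The level of hsa-mir-362 was lower in all 3 HEK293E siERH libraries than in all 4 controls, whereas in K562 its log2 ratio of siERH-#5 to siGFP was 0.47. hsa-mir-500b was also lower in all HEK293E siERH libraries, but its K562 log2 ratio of 0.12 was close to the median of all hairpins there (0.11). The difference between the lines was not tested, because K562 has 1 library per arm. In both lines the share of hsa-mir-362 in the cluster was larger with siERH. Among 17 sets of 4 control values that were checked, 0 held a library that stood apart from the others. A library counted as apart only where its gap to the nearest value filled most of the range. With 4 values per set, smaller departures would not be found.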

How the results depend on the processing

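The calls for hsa-mir-502, hsa-mir-532 and hsa-mir-500a held in 15 of 15 alternatives, and hsa-mir-500b passed in 8 of 15. None of these alternatives changed how reads that fit several hairpins were counted. The count of hairpins called lower over the whole table, 125, was 67 with library totals, 63 with a mean of at least 100 counts, 66 with limma on log2(RPM + 1), 63 on log2(RPM + 10), and 76 to 130 when single libraries were left out, lowest without a siERH-#3 library (77 without replicate 1, 76 without replicate 2). Calls higher, 184, were 82 with the mean of at least 100 counts, which left 419 hairpins. Usage calls, 19, were 12 with that filter and 8 to 17 with single libraries left out. Members called for usage, 0, numbered 2 with the replicate block, 1 with that filter and 0 to 1 with single libraries left out (hsa-mir-502 without siGFP replicate 1, edgeR adjusted p = 0.0489). With the replicate block, members whose siERH shares lay above the controls went from 2 to 4 and those below from 2 to 3, and no level call among the members changed. Without hsa-mir-500b in the total 1 lay above. Without the 4 members that resemble each other (hsa-mir-500a, hsa-mir-500b, hsa-mir-501, hsa-mir-502) 1 of the remaining members had lower and 1 higher shares in HEK293E, and 1 had a lower share in K562. The log2 fold change of hsa-mir-188, -0.10, was 0.088 with library totals, 0.11 with limma at either pseudocount and -0.21 to 0.055 with single libraries left out. That of hsa-mir-660, -0.15, was 0.040, 0.038 and 0.037 in the same 3 settings. The usage value of hsa-mir-500b, -0.01, was 0.015 with the replicate block and -0.055 to 0.060 with single libraries left out. In K562 the log2 ratio of hsa-mir-501 was 0.14 with library totals. Causes of these shifts were not tested. The counts bound the precision of K562 shares, and with 1 library per arm the spread between cultures is unknown there.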

Other observations

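Among the 8 members the log2 fold changes in HEK293E spanned 1.12. The 6 other clusters with at least 4 hairpins tested held at most 6 and spanned 0.0176 to 4.85, with a median of 0.48, and 1 of them was wider. A range tends to widen with the number of hairpins, so clusters of unequal size are not compared further. The seeds of 2 members are also carried by 3 hairpins elsewhere. hsa-mir-6866, with the seed of hsa-miR-188-5p, had a mean of 14.7 counts in HEK293E and a log2 fold change of -0.71 ± 0.30 (SE; adjusted p = 0.0868, edgeR). The copies hsa-mir-329-1 and hsa-mir-329-2, with the seed of hsa-miR-362-3p, had a mean of 2.57 counts each and were not tested.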
